A study of Mustela putorius furo with 2 samples.

Results

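The genes described here are the microtubule motors, the motor subunits and the tubulins of the ferret cortex. They were chosen by symbol: kinesin heavy chains (KIF and KIFC genes), kinesin light chains and the kinesin-associated protein (KLC and KIFAP genes), cytoplasmic dynein subunits (DYNC and DYNL genes), dynactin subunits (DCTN genes), and the alpha-, beta- and gamma-tubulin genes with the gamma-tubulin complex (TUBA, TUBB and TUBG genes), without TUBA1A. The rule found 71 of 28156 features, of which 14296 carry a symbol. A unique molecular identifier (UMI) in a kept nucleus was counted for 70 of the 71, and 63 had at least 50 UMIs over both libraries. KIF2B had no UMI, which allows a level of up to 0.0579 CPM (UMIs scaled to a total of 1000000) in the upper-band library and 0.0569 CPM in the deeper-band library. Several well-known relatives, among them KIF2A, KLC1, DCTN1, DYNLL1, TUBB3, TUBB2A and TUBG1, are not analysed here.

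Microtubules are polymers of alpha- and beta-tubulin that are nucleated from gamma-tubulin complexes. Most kinesins walk along them toward the plus end, and cytoplasmic dynein with its cofactor dynactin walks toward the minus end. Together they carry vesicles, organelles and messenger RNA through axons and dendrites and into the processes of myelinating glia, while other kinesins act in the mitotic spindle or in cilia. Doublecortin, the product of DCX, binds and stabilises microtubules in migrating neurons, and its loss is known to misplace neurons beneath the cortex.

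Nuclei came from somatosensory cortex of ferrets (Mustela putorius furo) whose genotype label is DCX knockout, while the series text speaks of a knockdown. The labels name an upper and a deeper band of cortex, and each band gave 1 library. Both groups carry the same genotype, wild-type tissue is not analysed here, and the labels give neither the age nor the number of the animals, nor how DCX was disrupted. The titles give the libraries replicate numbers 1 and 2 of a mutant, but the region labels differ, and each was taken as its own group. No difference below has a replicate check: band, library and animal cannot be told apart, and every interval is a 95% interval that covers counting error only.

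After filtering, the upper-band library held 6231 nuclei with 51835120 UMIs and the deeper-band library 8062 nuclei with 52715880 UMIs. DCX itself stood in excitatory nuclei at 71.1 CPM (upper) and 77.4 CPM (deeper), a transcript level that cannot check a label of knockout without wild-type tissue. The libraries shared 24 cell barcodes, 16 of them after filtering. Clusters were named from marker genes, and 5 classes had at least 50 nuclei in each library. Excitatory neuron-like nuclei numbered 3158 (upper) and 3420 (deeper), inhibitory neuron-like nuclei 1020 and 763, astrocyte-like nuclei 392 and 810, oligodendrocyte-like nuclei 851 and 2050, and oligodendrocyte precursor-like nuclei 126 and 193. Median depth per nucleus ran from 10728.5 UMIs for upper-band excitatory nuclei to 1861 UMIs for deeper-band oligodendrocyte-like nuclei. In what follows, paired values give the upper band first and the deeper band second. The 12 oligodendrocyte markers found summed to 13780 and 13963 CPM in oligodendrocyte-like nuclei and to 101.8 and 78.3 CPM in excitatory ones. Nuclei of 1 class also held RNA of others: GAD2, which makes GABA in inhibitory neurons, stood in oligodendrocyte-like nuclei at 34.5 and 28.7 CPM against 733.5 and 691.7 CPM in inhibitory nuclei. SLC17A7, another excitatory gene, did not separate the classes, at 50.5 and 51.9 CPM in oligodendrocyte-like against 66.5 and 89.6 CPM in excitatory nuclei.

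Motor and tubulin genes took nearly the same share of UMIs in both bands, 0.481% and 0.484%. Their summed level in excitatory nuclei was 4715 and 4643 CPM. It was highest in oligodendrocyte-like nuclei, at 6351 and 6327 CPM, and lowest in astrocyte-like nuclei, at 4251 and 4423 CPM. Classes come from clusters of the same nuclei, and KIF6, TUBB6, KIF26B, KIF13A and TUBB4A were among the 2000 genes used for clustering, so levels by class are a description. The class with the highest level was the same in both libraries for 47 of the 63 genes with enough UMIs and differed for 16, as it did for 35.41% of all genes. It was the oligodendrocyte-like class for 14 genes (16.94% of all genes), the inhibitory for 11 (10.95%), the excitatory for 10 (13.69%), the precursor for 8 (9.314%) and the astrocyte-like for 4 (13.7%).

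A gene was said to lead in a class when its level there was highest in both libraries and at least 1 log2 unit above the next class in each. Of the 63 genes, 7 led in a class, and the share of all genes that led is given beside each class below. KIF26A led in inhibitory nuclei, where 2.16% of all 16877 genes with at least 50 UMIs led. KIF7 led in astrocyte-like nuclei (3.96% of all genes), TUBB4A and KIF21A in oligodendrocyte-like nuclei (3.81%), and KIF13A, KIF21B and KIF19 in precursor nuclei (1.46%). None led in excitatory nuclei, where 3.51% of all genes did. KIF26A no longer led when no doublets or more doublets were removed, and KIF7 no longer led when nuclei were thinned to 1500 UMIs or nuclei with a shared barcode were left out.

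**Figure D1:**
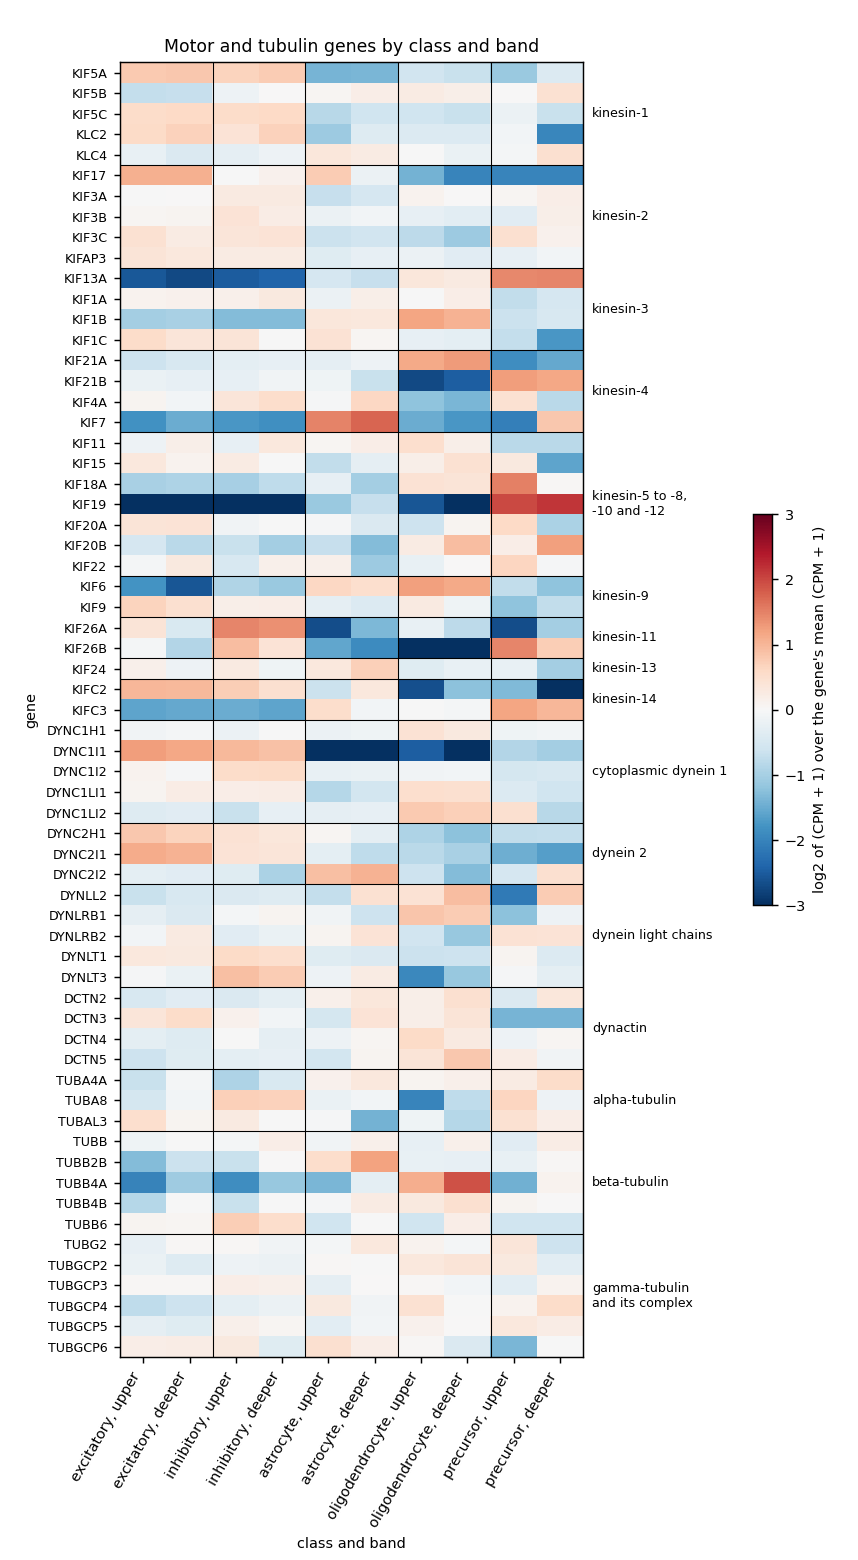
Levels of the 63 genes with at least 50 UMIs (rows, grouped by role) in 5 marker-named classes (columns, upper then deeper band), as the log2 of CPM + 1 over the gene's mean CPM + 1 across the 10 columns, limited to 3 in either direction. DYNC1I1 is high in both neuron classes and low in glia, KIF1B, KIF6, KIF21A and TUBB4A are high in oligodendrocyte-like nuclei, and KIF13A and KIF19 are high in precursors, in both bands.

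Among the motors of fast axonal transport, the kinesin-1 heavy chains split by class. KIF5C, a neuronal heavy chain, stood in excitatory nuclei at 577.8 CPM (570.1 to 585.6) and 599.5 CPM (591.7 to 607.3), and at 582.7 and 601.9 CPM in inhibitory nuclei. In oligodendrocyte-like nuclei it stood at 259.5 and 249.5 CPM. KIF5A, the heavy chain mutated in hereditary spastic paraplegia, stood at 102.2 and 103.7 CPM in excitatory nuclei and at 22.0 and 22.4 CPM in astrocyte-like nuclei. KIF5B, the broadly used heavy chain, ran the other way, from 45.3 and 45.8 CPM in excitatory nuclei to 88.4 and 84.7 CPM in oligodendrocyte-like ones. Excitatory over oligodendrocyte-like log2 ratios were 1.16 and 1.26 for KIF5C in the 2 bands, 1.38 and 1.49 for KIF5A, and -0.97 and -0.89 for KIF5B. The light chain KLC4, which links kinesin-1 to cargo, was lower in excitatory than in astrocyte-like nuclei, with ratios of -0.60 and -0.71. Of the kinesin-2 genes, whose products drive intraflagellar transport and carry neuronal cargo, KIFAP3 had the most UMIs. It stood at 268.8 and 256.1 CPM in excitatory nuclei and at 179.8 and 161.6 CPM in oligodendrocyte-like nuclei. KIF3C, another kinesin-2 motor, was higher in excitatory than in oligodendrocyte-like nuclei by 1.27 and 1.40, and KIF17, a dendritic kinesin-2, was higher in excitatory than in inhibitory nuclei by 1.32 and 1.15.

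Several kinesin-3 and kinesin-4 genes had their highest levels in the oligodendrocyte lineage. KIF13A, a kinesin-3 that moves endosomes, stood at 1161 CPM (1054 to 1276) and 1180 CPM (1085 to 1282) in precursor nuclei. It stood at 537.0 and 511.7 CPM in oligodendrocyte-like nuclei, at 299.4 and 260.2 CPM in astrocyte-like nuclei and at 71.4 and 63.9 CPM in excitatory nuclei. Thinning to 1500 UMIs, here and elsewhere, left out the nuclei that held fewer. These were 346 and 707 of all nuclei, with 80 and 418 in the oligodendrocyte-like and 6 and 8 in the precursor class. Among the thinned nuclei, 79.2% and 81.6% of precursor nuclei held a KIF13A UMI, against 10.4% and 9.87% of excitatory nuclei. Without thinning these shares were 90.5% and 91.7% against 46.3% and 42.8%. KIF1B, a kinesin-3 that carries mitochondria and synaptic vesicle precursors, stood at 1259 CPM (1211 to 1309) and 1143 CPM (1110 to 1176) in oligodendrocyte-like nuclei. Excitatory nuclei held 275.0 and 283.0 CPM of it, a log2 ratio to oligodendrocyte-like nuclei of -2.19 and -2.01. KIF1A, its neuronal relative, had ratios of 0.12 (-0.02 to 0.27) and -0.08 (-0.18 to 0.02), with both intervals spanning 0. KIF21A, a kinesin-4 that restrains microtubule growth, stood at 1330 CPM (1281 to 1381) and 1475 CPM (1438 to 1513) in oligodendrocyte-like nuclei. Its level was lowest in precursor nuclei, at 166.2 and 208.3 CPM. KIF21B, the closest relative of KIF21A, ran the other way within the lineage: 83.1 and 77.8 CPM in precursor nuclei and 4.37 and 5.36 CPM in oligodendrocyte-like nuclei.

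Of the kinesin-9 pair, both known from motile cilia, KIF6 was highest in glia and KIF9 in excitatory nuclei. KIF6 stood at 449.0 and 416.7 CPM in oligodendrocyte-like nuclei, at 293.7 and 270.2 CPM in astrocyte-like nuclei and at 54.3 and 31.3 CPM in excitatory nuclei. KIF9 stood at 52.6 and 45.7 CPM in excitatory nuclei, at 39.4 and 29.7 CPM in oligodendrocyte-like nuclei and at 26.9 and 24.4 CPM in astrocyte-like nuclei. KIF19, a kinesin-8 that shortens microtubules at ciliary tips, had 21 and 30 UMIs in precursor nuclei, or 56.3 CPM (34.9 to 86.1) and 63.1 CPM (42.6 to 90.1). Excitatory nuclei held 0.05 and 0.24 CPM of KIF19. KIF7, a kinesin-4 that organises Hedgehog signalling at the ciliary tip, had 13 and 26 UMIs in astrocyte-like nuclei, or 10.6 CPM (5.65 to 18.1) and 12.96 CPM (8.47 to 19.0). The 7 ependymal markers found, which would mark cells with motile cilia, summed to between 24.8 and 42.4 CPM in the 3 glial classes and to between 75.6 and 105.4 CPM in the neuron classes.

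Cytoplasmic dynein 1 is assembled around the heavy chain DYNC1H1, and its intermediate chains bind dynactin and cargo. DYNC1I1, the neuronal intermediate chain, had the most UMIs among the dynein genes. It stood in excitatory nuclei at 695.5 CPM (687.0 to 704.1) and 648.1 CPM (640.0 to 656.3), and in inhibitory nuclei at 576.4 and 539.9 CPM. Astrocyte-like nuclei held 33.5 and 30.9 CPM of it, and oligodendrocyte-like nuclei 52.0 and 33.3 CPM. These glial levels were 4.81% and 4.77%, and 7.48% and 5.15%, of the excitatory level. GAD2, a gene of inhibitory neurons, stood in the same nuclei at 3.67% and 4.25%, and 4.70% and 4.15%, of its inhibitory level. The part of free neuronal RNA in the glial DYNC1I1 level was not tested. Precursor nuclei held more DYNC1I1, at 158.2 and 143.1 CPM, or 22.7% and 22.1% of the excitatory level, where GAD2 stood at 4.39% and 4.26% of its inhibitory level. DYNC1I2, the broadly used intermediate chain, lay between 101.9 and 219.3 CPM in all 5 classes and both bands. DYNC1H1 lay between 136.2 and 210.9 CPM, with its highest level in oligodendrocyte-like nuclei. The light intermediate chain DYNC1LI2 was higher in oligodendrocyte-like than in excitatory nuclei (excitatory over oligodendrocyte-like ratios of -1.21 and -1.08). Of the 4 dynactin genes, 3 had the same sign: DCTN4 had ratios of -0.86 and -0.67, DCTN2 of -0.67 and -0.84, and DCTN5 of -1.11 and -1.26. DCTN3 had ratios of 0.30 (-1.11 to 2.20) and 0.22 (-0.72 to 1.32), from 4 and 10 UMIs in oligodendrocyte-like nuclei.

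Dynein 2, the motor of retrograde transport in cilia, was highest in excitatory nuclei. DYNC2H1, its heavy chain, stood there at 389.1 and 353.3 CPM, with 115.2 and 93.5 CPM in oligodendrocyte-like nuclei. DYNC2I1, an intermediate chain, was higher in excitatory than in oligodendrocyte-like nuclei by 1.94 and 2.02, and higher than in inhibitory nuclei by 0.72 and 0.66. DYNC2I2, the other intermediate chain, was instead higher in astrocyte-like nuclei, with excitatory over astrocyte-like ratios of -1.29 and -1.48. Of the shared light chains, DYNLT1 was higher in excitatory than in oligodendrocyte-like nuclei by 1.00 and 0.97, while DYNLRB1 had ratios of -1.14 and -1.22.

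The number of motor and tubulin genes that differed between excitatory nuclei and glia was near that of genes in general. Counting genes that differed by at least 0.5 log2 units with intervals clear of 0 in both libraries, 15 of 59 were higher in excitatory than in oligodendrocyte-like nuclei, where 28.7% of all genes were, and 17 were lower, where 24.9% were. Against astrocyte-like nuclei 14 of 59 were higher in excitatory nuclei (20.6% of all genes) and 11 lower (20.8%). Against inhibitory nuclei 2 of 59, DYNC2I1 and KIF17, were higher in excitatory nuclei (12.1% of all genes). The 7 genes lower in excitatory than in inhibitory nuclei (14.2%) were TUBA8, KIF26A, DYNLT3, KIF26B, KIF6, TUBB2B and KIF5B.

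The tubulins differed among themselves in class pattern. TUBB4A, a beta-tubulin whose mutations cause a hypomyelinating leukodystrophy, was highest in oligodendrocyte-like nuclei, with 143.8 CPM (127.9 to 161.2) in the upper band and 253.1 CPM (238.0 to 269.0) in the deeper one. Its level was 15.9 and 31.5 CPM in excitatory nuclei and 24.1 and 71.5 CPM in precursor nuclei. TUBB2B, a beta-tubulin whose mutations cause malformed cortex, was highest in astrocyte-like nuclei, at 131.4 and 208.9 CPM, against 35.9 and 57.4 CPM in excitatory nuclei. TUBB4B, a widely used beta-tubulin, lay between 19.2 and 49.4 CPM over all classes and bands, and TUBA4A, an alpha-tubulin, between 16.1 and 46.3 CPM. TUBB lay between 5.36 and 8.41 CPM. The gamma-tubulin gene TUBG2 lay between 6.31 and 13.4 CPM, and TUBGCP5, the subunit of the gamma-tubulin complex with the most UMIs, between 100.4 and 163.5 CPM. Tubulin genes are close copies of each other, and how reads that match several copies were counted is not given in the sources used here, so the split of UMIs among them is uncertain.

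Between bands, most motors differed little within a class and several tubulins differed more. A gene was called past the fold when its log2 ratio of CPM, deeper over upper band, was at least 0.5 in size, its interval was clear of 0 and it had at least 50 UMIs in the class. In excitatory nuclei 5 of 60 genes were past the fold upward, against 4.96% of all 15534 genes, and 4 downward, against 8.48%. The higher ones were all tubulins (TUBB4A, TUBB4B, TUBB2B, TUBA4A and TUBA8), and the lower ones were KIF26A, KIF26B, KIF6 and TUBAL3. Of the 3 alpha- and 4 beta-tubulin genes with enough UMIs, 5 were higher and 1 was lower, and none of 6 genes of gamma-tubulin and its complex was past the fold. The median ratio of the 60 genes was 0.02, and that of all genes -0.03. None of the 5 kinesin-1, 5 kinesin-2, 5 cytoplasmic dynein 1, 3 dynein 2 or 4 dynactin genes with enough UMIs was past the fold there. KIF5C had a ratio of 0.05, KIFAP3 of -0.07, KIF1B of 0.04, KIF21A of 0.16, DYNC1I1 of -0.10, DYNC1H1 of 0.06, DYNC2H1 of -0.14 and DCTN4 of -0.09.

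**Figure D2:**
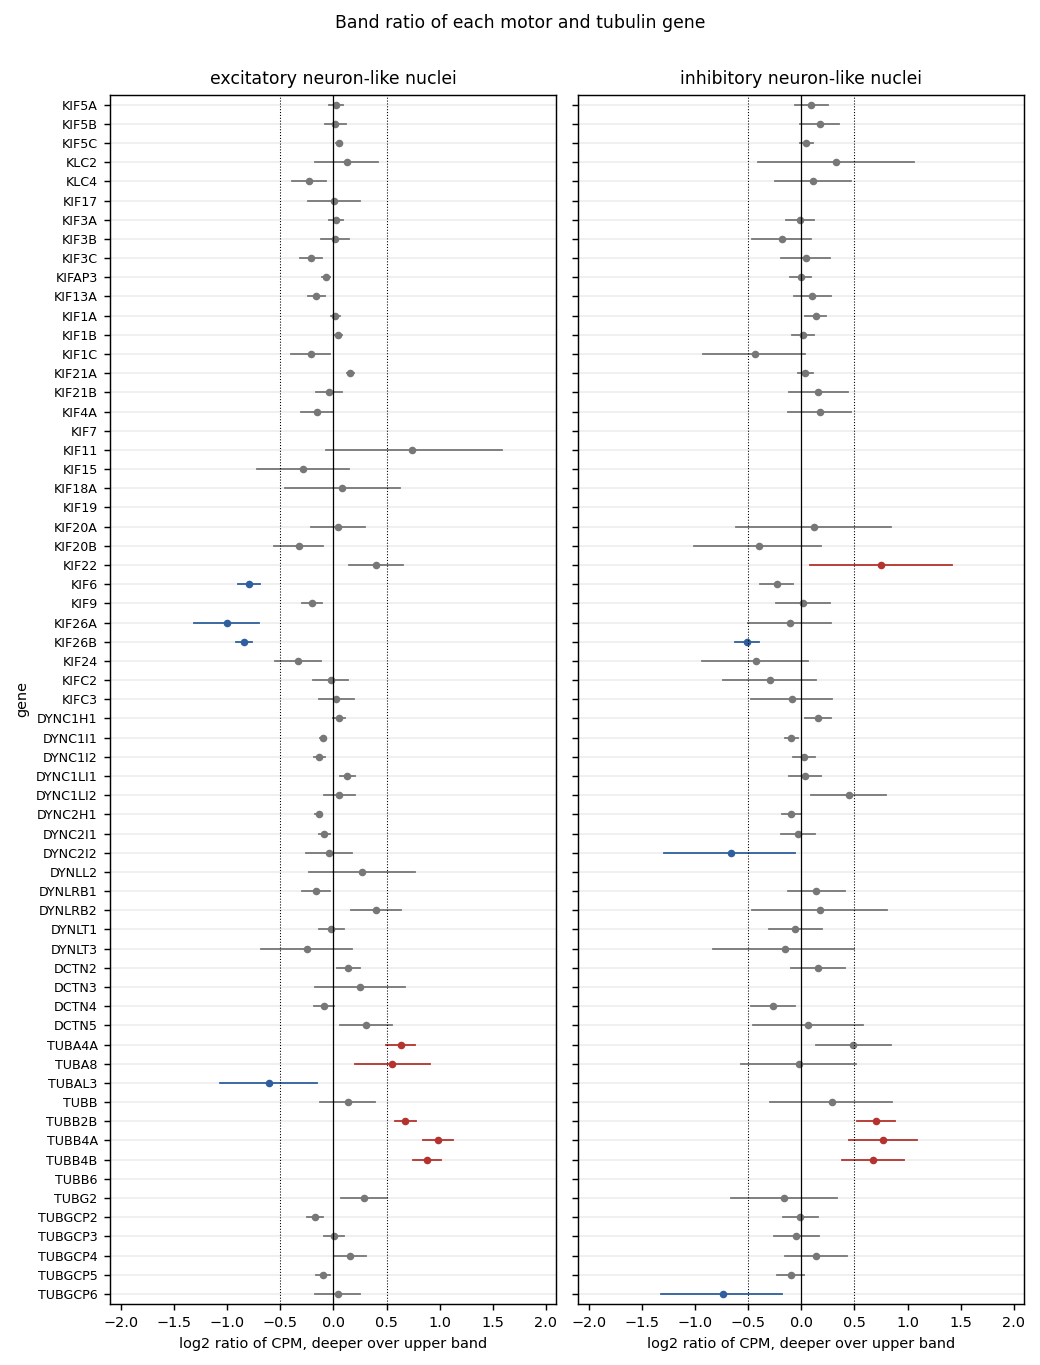
Log2 ratio of CPM, deeper over upper band, for each motor and tubulin gene with at least 50 UMIs in excitatory (left) and inhibitory (right) nuclei, with 95% counting intervals; red points are past the fold upward, blue points downward, dotted lines mark 0.5 in either direction. In excitatory nuclei TUBB4A (0.98), TUBB4B (0.88), TUBB2B (0.68), TUBA4A (0.63) and TUBA8 (0.55) lie on the right, and KIF26A (-1.004), KIF26B (-0.84), KIF6 (-0.80) and TUBAL3 (-0.61) on the left.

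In excitatory nuclei TUBB4A had 588 and 1192 UMIs, or 15.9 CPM (14.7 to 17.3) and 31.5 CPM (29.8 to 33.4). Its log2 ratio was 0.98 (0.84 to 1.13). TUBB4B stood at 19.2 and 35.4 CPM, a ratio of 0.88 (0.75 to 1.01). TUBB2B stood at 35.9 and 57.4 CPM, a ratio of 0.68 (0.58 to 0.78), and TUBA4A at 19.3 and 30.0 CPM, a ratio of 0.63 (0.50 to 0.77). In each of these 4 genes the deeper band was the higher. TUBA8, an alpha-tubulin with few UMIs, stood at 3.06 and 4.496 CPM, a ratio of 0.55 (0.20 to 0.91), and was not past the fold after thinning (0.03). TUBB did not follow them, at 6.43 and 7.06 CPM, a ratio of 0.14 (-0.12 to 0.39). TUBAL3, an alpha-tubulin-like gene, had the opposite sign, at 2.82 and 1.85 CPM, a ratio of -0.61 (-1.07 to -0.16).

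The bands differ in the make-up of their excitatory nuclei. Nuclei with markers of upper cortical layers were 20.2% and 58.0% of excitatory nuclei, and those with markers of deep layers 49.8% and 20.3%. TUBB4A, TUBB4B, TUBB2B and TUBA4A were past the fold within both subclasses, and TUBA8 only within upper-layer-like nuclei (0.60, -0.16 to 1.33 in deep-layer-like ones). TUBB4A had a ratio of 0.91 (0.63 to 1.19) within upper-layer-like and 1.15 (0.91 to 1.39) within deep-layer-like nuclei, and TUBB4B had ratios of 0.76 and 1.04. TUBB2B had ratios of 0.74 and 1.01, and TUBA4A of 0.62 and 0.60. Over the 11 excitatory clusters with at least 20 nuclei in each library, TUBB4A, TUBB4B and TUBB2B were higher in the deeper band in 11 and TUBA4A in 10. Within upper-layer-like nuclei 5 of 59 genes were past the fold upward (3.44% of all genes) and 2 downward (4.09%), the 2 being KIF6 and the light chain DYNLT3, at -0.82 (-1.52 to -0.11). Within deep-layer-like nuclei 6 of 57 were past it upward (6.71%), with the gamma-tubulin TUBG2 at 0.57 and the chromokinesin KIF22 at 0.52 beside the 4 tubulins, and 2 downward (6.04%), KIF6 and TUBAL3.

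Ribosomal protein genes were also higher in the deeper band. The 33 genes of the cytosolic ribosome that were found, a list added after the tubulin values had been seen, summed to 706.4 and 872.1 CPM in excitatory nuclei. Their ratio was 0.30 in excitatory nuclei (0.28 to 0.33), 0.39 in inhibitory, 0.37 in astrocyte-like, 0.35 in oligodendrocyte-like and 0.44 in precursor nuclei. Relative to them, the sum of TUBB4A, TUBB4B, TUBB2B, TUBA4A and TUBB was higher in the deeper band by 0.43 (0.37 to 0.50) in excitatory nuclei, 0.27 (0.14 to 0.40) in inhibitory and 0.23 (0.01 to 0.46) in astrocyte-like nuclei. The relative ratio was 0.12 (-0.03 to 0.27) in oligodendrocyte-like and 0.04 (-0.44 to 0.52) in precursor nuclei, neither of them distinguishable from 0 at this depth. The 5 genes of this sum were also picked after their values had been seen. With every gene taken relative to the ribosomal protein genes, whose sum was treated as exact, 2 genes of 60, TUBB4A and TUBB4B, were past the fold upward in excitatory nuclei and 12 downward, in place of 5 and 4. TUBB2B, TUBA4A and TUBA8 were then no longer past it, and the fall of most ratios follows from the change of scale.

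**Figure D3:**
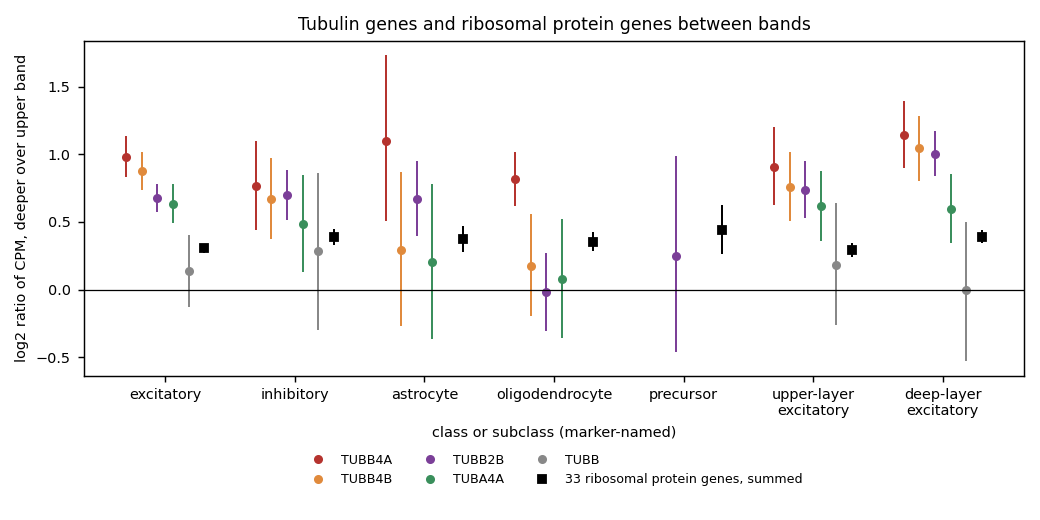
Log2 ratio of CPM, deeper over upper band, with 95% counting intervals, for 5 tubulin genes (circles, where the class held at least 50 UMIs) and for the sum of 33 ribosomal protein genes (black squares) in 5 classes and 2 excitatory subclasses. TUBB4A lies above the ribosomal protein genes in excitatory (0.98 against 0.30) and oligodendrocyte-like (0.82 against 0.35) nuclei, and TUBB, at 0.14 in excitatory nuclei, does not.

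Of the kinesins with less RNA in deeper-band excitatory nuclei, KIF6 was past the fold within both subclasses. In excitatory nuclei it had 2002 and 1183 UMIs, or 54.3 CPM (51.9 to 56.7) and 31.3 CPM (29.5 to 33.1), a ratio of -0.80 (-0.90 to -0.69). The ratio was -0.72 (-0.91 to -0.54) within upper-layer-like and -0.57 (-0.77 to -0.38) within deep-layer-like nuclei. It was below 0 in 9 of the 11 clusters, with the interval clear of 0 in 8. The 2 exceptions were cluster 13, led by HHLA2, KLHL14 and CCDC180 (0.29, -0.37 to 0.90), and cluster 17, led by NPR3 and CRHR2 (0.13, -0.45 to 0.66), which held 28 and 20 deeper-band nuclei. The KIF6 ratio was -0.23 (-0.39 to -0.07) in inhibitory, -0.12 (-0.32 to 0.08) in astrocyte-like and -0.11 (-0.22 to 0.01) in oligodendrocyte-like nuclei. Oligodendrocyte-like nuclei hold more KIF6 than neurons, and RNA of that class was found in excitatory nuclei. The myelin genes MBP, MOG and MOBP stood there at 1.05% and 0.648%, 2.99% and 2.29%, and 0.352% and 0.293% of their level in oligodendrocyte-like nuclei. The part of such RNA in the KIF6 ratio was not tested.

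KIF26A and KIF26B, the kinesin-11 pair, are atypical kinesins that bind microtubules without walking along them. In excitatory nuclei KIF26A stood at 7.27 CPM (6.42 to 8.19) and 3.62 CPM (3.04 to 4.28), a ratio of -1.004 (-1.31 to -0.70). KIF26B stood at 108.2 CPM (104.9 to 111.6) and 60.2 CPM (57.8 to 62.8), a ratio of -0.84 (-0.92 to -0.77). After thinning to 1500 UMIs the KIF26A interval reached 0 (-0.86, -1.79 to 0.03). Neither gene was past the fold within a subclass. KIF26A had a ratio of 0.32 (-0.60 to 1.34) within upper-layer-like and -0.22 (-0.63 to 0.18) within deep-layer-like nuclei, and it was above 0 in 7 of the 11 clusters, with no interval clear of 0. KIF26B had ratios of -0.47 (-0.65 to -0.28) and -0.31 (-0.42 to -0.20). Over the 11 clusters the KIF26B ratio had no single direction. It was above 0 in 5, with the interval clear of 0 in 2, and below 0 in 6, with the interval clear in 2. The cluster ratios ran from -0.67 in cluster 17 to 1.01 in cluster 6.

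Both kinesin-11 genes differed widely between neuron subclasses. Comparing upper-layer-like with deep-layer-like nuclei in both libraries, 1 of 57 genes was past the fold upward (4.76% of all genes) and 3 downward (7.39%). The higher gene was KIFC3, a minus-end kinesin-14, at 0.56 and 0.50. The lower genes were KIF26A, at -2.88 and -2.33, KIF26B, at -1.73 and -1.89, and KIF13A, at -0.55 and -0.75. Between inhibitory nuclei with markers of the medial (MGE) and the caudal (CGE) ganglionic eminence, 1 of 45 genes was higher in MGE-like nuclei (8.72% of all genes). This was DYNC1I1, at 0.80 and 1.18. The 2 lower ones (7.97%) were again KIF26A, at -4.29 and -2.98, and KIF26B, at -1.08 and -1.45. KIF26A stood at 48.9 and 39.1 CPM in CGE-like and at 2.5 and 4.95 CPM in MGE-like nuclei.

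One cluster carried much of the excitatory KIF26B. Cluster 13 held 157 and 28 nuclei, 4.97% and 0.819% of excitatory nuclei. KIF26B stood there at 1279 and 1175 CPM, a ratio of -0.12 (-0.30 to 0.05), and the cluster held 43.3% and 13.3% of excitatory KIF26B UMIs. Without it, the excitatory ratio of KIF26B was -0.28 (-0.36 to -0.19), which is not past the fold, and 5 genes were then past it upward and 3 downward. The cluster was picked as the excitatory cluster highest in KIF26B. It was also a larger share of upper-band nuclei, so a ratio smaller in size without it follows from that choice. KIF26B was among the genes used for clustering, but clustering without the motor and tubulin genes returned 184 nuclei, all of them from cluster 13, with KIF26B at 1279 and 1177 CPM. Among inhibitory clusters KIF26B was highest in cluster 16, led by CALB2, ADAMTS16 and VIP, at 645.6 and 465.9 CPM. KIF26A was highest in cluster 12, led by COCH, MCTP2 and PROK2, at 58.4 and 35.8 CPM. The 2 genes thus had their highest levels in different clusters.

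**Figure D4:**
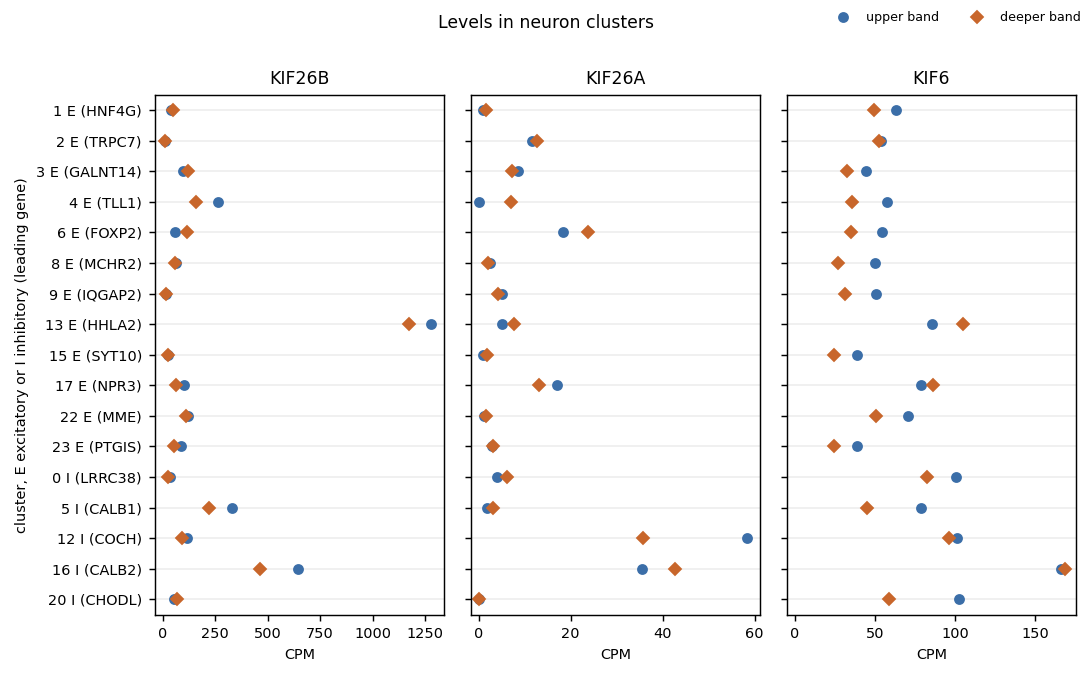
CPM of KIF26B, KIF26A and KIF6 in neuron clusters with at least 12 nuclei in each library (rows, with the leading gene of each), in the upper (blue circles) and deeper (orange diamonds) band; each panel has its own axis from 0. KIF26B stands at 1279 and 1175 CPM in cluster 13, KIF26A is highest in cluster 12, and KIF6 is lower in the deeper band in most excitatory clusters.

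In inhibitory nuclei 4 of 53 genes were past the fold upward between bands (3.79% of all genes) and 3 downward (3.6%). TUBB4A stood at 17.5 and 29.9 CPM, a ratio of 0.77 (0.45 to 1.09), TUBB2B at 56.2 and 91.3 CPM, a ratio of 0.70 (0.52 to 0.88), and TUBB4B at 22.0 and 35.0 CPM, a ratio of 0.67 (0.38 to 0.96). All 3 were higher in the deeper band, as in excitatory nuclei, but after thinning the interval of TUBB4A reached 0 (0.71, -0.08 to 1.52). TUBA4A, at 0.49 (0.14 to 0.84), lay just inside the threshold. KIF22, a chromosome-binding kinesin, had 37 and 44 UMIs and a ratio of 0.75 (0.08 to 1.42), which was 0.53 (-0.14 to 1.20) when each nucleus was weighted equally. The lower ones were TUBGCP6, a scaffold of the gamma-tubulin ring complex, at -0.74 (-1.32 to -0.18), DYNC2I2 at -0.66 (-1.29 to -0.06), and KIF26B at -0.51 (-0.63 to -0.40), which lay at the threshold and was -0.45 with each library clustered on its own. TUBGCP6 and DYNC2I2 had under 100 UMIs in each band. After thinning to 1500 UMIs, 2 of these genes remained past the fold, TUBB2B and TUBB4B, and DYNC2I2 changed sign to 0.26. Relative to the ribosomal protein genes, none of the 4 upward calls was kept in inhibitory nuclei.

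In the glial classes few genes were past the fold. In the astrocyte-like class 2 of 38 were past the fold upward (4.24% of all genes), TUBB4A at 25.3 and 54.3 CPM (ratio 1.103, 0.52 to 1.73) and TUBB2B at 131.4 and 208.9 CPM (0.67, 0.40 to 0.94). Relative to the ribosomal protein genes, TUBB2B was no longer past the fold there, nor was TUBB4A in oligodendrocyte-like nuclei. In astrocyte-like nuclei 1 gene was lower (3.94%), KIFC3 at 72.6 and 46.9 CPM (-0.63, -1.07 to -0.20). In oligodendrocyte-like nuclei 2 of 38 were higher (3.11%). TUBB4A had a ratio of 0.82 (0.63 to 1.01), and within the clusters of this class it was 0.52 (0.28 to 0.77) in cluster 7 and 1.07 (0.76 to 1.40) in cluster 19, the latter led by OPALIN, CASR and CDH19. KIF20B, a kinesin of cytokinesis, had 34 and 111 UMIs and a ratio of 0.71 (0.14 to 1.31), and was not past the fold after thinning or with more doublets removed. The 1 lower gene (2.85%) was DYNC1I1, at -0.64 (-1.02 to -0.26), at levels between 5.15% and 7.48% of those in excitatory nuclei. Some neuronal genes were lower in the same nuclei and some were not. MAP2 stood at 125.9 and 77.9 CPM (-0.69, -0.93 to -0.45) and STMN2 at 31.1 and 18.5 CPM (-0.75, -1.25 to -0.25). SLC17A7 stood at 50.5 and 51.9 CPM, GAD1 at 4.86 and 5.60 CPM and KIF5A at 39.4 and 37.0 CPM there. The part of free neuronal RNA in the DYNC1I1 ratio was not tested. In precursor nuclei none of 22 was higher (3.28%) and 2 were lower (3.34%). KIF26B stood at 311.0 and 189.3 CPM (-0.72, -1.13 to -0.31), and KIF5C at 351.2 and 248.2 CPM (-0.50, -0.87 to -0.13). KIF5C lay at the threshold and was not past it without doublet removal, with more doublets removed, with a minimum of 1000 genes or without shared barcodes.

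Kinesins of the mitotic spindle and of cytokinesis were summed over the 11 listed genes that were found, because most were sparse. KIF4A, a chromokinesin, gave 1046 of 2479 and 984 of 2541 UMIs. KIF11, the spindle motor that pushes the poles apart, gave 34 and 49, and KIF2C, KIF14 and KIF18B gave under 10 each. The sum was 47.8 CPM (46.0 to 49.8) and 48.2 CPM (46.4 to 50.1), a log2 ratio of 0.01 (-0.07 to 0.09). Excitatory nuclei, which do not divide, stood at 47.8 CPM (45.6 to 50.1) and 46.1 CPM (43.9 to 48.3). Precursor nuclei, a class that can divide, stood at 77.8 CPM (52.1 to 111.7) and 56.8 CPM (37.4 to 82.6), so their interval cleared that of excitatory nuclei in the upper band and overlapped it in the deeper band. Oligodendrocyte-like nuclei stood at 43.7 CPM (35.2 to 53.8) and 57.2 CPM (50.1 to 65.0), and only the second interval cleared that of excitatory nuclei. Their sum includes KIF20B, which was past the fold in this class, but not after thinning or with more doublets removed. With nuclei thinned to 1500 UMIs, between 6.61% and 9.17% of nuclei held a UMI of the list in every class and band. The 4 markers of proliferating cells that were found summed to between 4.29 and 8.97 CPM in all 5 classes. No class stood apart from excitatory nuclei by these genes in both bands at this depth.

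**Figure D5:**
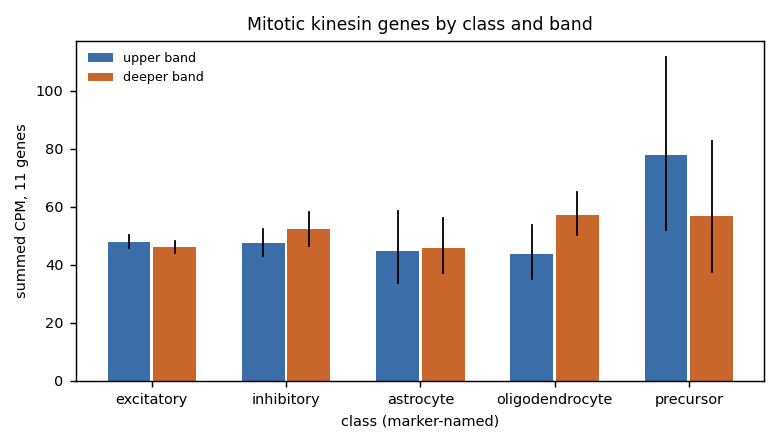
Summed CPM of 11 mitotic kinesin genes in 5 marker-named classes of the upper (blue) and deeper (orange) band, with 95% Poisson intervals as black lines. The 2 excitatory bars, at 47.8 and 46.1 CPM, lie within the range of the glial bars, which run from 43.7 to 77.8 CPM, and precursor nuclei have the widest intervals.

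The other genes of microtubule transport, from a list drawn up with earlier results known, were read with the same rule. The background in excitatory nuclei is the 4.96% of all genes past the fold upward and 8.48% downward, and each list held 1 gene past it, which is no more than that background. Of 31 motor adaptors and regulators tested there, the gene was GRIP1, a kinesin-1 adaptor for glutamate receptors, at 68.8 and 27.1 CPM (-1.34, -1.45 to -1.24). Its ratio was -0.52 within upper-layer-like and -0.49 within deep-layer-like nuclei, where it stood at 15.02 and 10.47 CPM and at 119.6 and 85.3 CPM. PAFAH1B1, the dynein regulator LIS1 of lissencephaly, was at 184.5 and 186.2 CPM, a ratio of 0.01 (-0.04 to 0.06). Of 27 lattice and plus-end proteins, 1 was past the fold, STMN1, which sequesters tubulin, at 80.6 and 132.3 CPM (0.72, 0.65 to 0.78), with ratios of 0.77 and 1.17 within the 2 subclasses. Of 15 genes of tubulin folding and modification, 1 was past it, VASH2, which removes the terminal tyrosine of alpha-tubulin, at 69.8 and 26.02 CPM (-1.42, -1.53 to -1.32), with ratios of -0.45 and -0.84 within the subclasses. The median ratios of the 3 lists in excitatory nuclei were -0.02, 0.01 and 0.01, against -0.03 for all genes. In inhibitory nuclei CAMSAP3, which caps minus ends, was the 1 gene of the 3 lists past the fold (background 3.79% upward and 3.6% downward), at -0.72 (-1.48 to -0.01). In oligodendrocyte-like nuclei 31, 23 and 10 genes of the 3 lists were tested. Of these 0, 1 and 0 were past the fold upward (3.11% of all genes) and 2, 2 and 1 downward (2.85%). In astrocyte-like nuclei 24, 23 and 6 genes of the lists were tested and 6 were past the fold. The background there is 4.24% of all genes upward and 3.94% downward. STMN1 (0.65, 0.31 to 1.00), the dynein adaptor gene BICDL1 (0.66) and the DCX relative DCLK2 (0.52) were higher in the deeper band, and FIGN (-0.58), TTL (-0.81) and TTLL11 (-0.51) were lower.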

How the data were processed

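The authors deposited, for each of the 2 libraries, a matrix of UMI counts per gene and barcode, as whole numbers with no normalization. The matrix headers name software version 3.1.0, and the submitters' processing notes name Cell Ranger 6.2.1 and 2.1.1. The genome build and the treatment of intronic, antisense and multiply matching reads are not given in the sources used here, so genes that overlap may share UMIs. Barcodes (7151 and 9694) with at least 500 detected genes were kept, doublets called by Scrublet removed (860 and 1546), and nuclei clustered with scanpy 1.11.5 (2000 variable genes, 30 components, Leiden resolution 1). Of 27 clusters, 23 were named from at least 3 raised markers. Class sums are given as CPM with exact Poisson intervals, log2 ratios with exact conditional binomial intervals. Free RNA was not corrected. With 1 library per band no test was made. The calculations were tested on simulated data. Genes named by rule are those that lead in a class, those past the fold and the most abundant of each role; the others were picked after their values were seen. Members and lists were chosen with earlier results of these data known.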

Additional observations from a re-analysis of the deposited data

How the results depend on the processing

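Over 22 alternatives, 178 recomputed counts and sums stayed within 1.5 times or the counting interval of the value given above and 45 moved. Of the single-gene values and class median ratios, counted together, 346 stayed, 39 moved and 2 single-gene values changed sign. Those 2 were KIF26A in excitatory nuclei, at 0.32 within upper-layer-like nuclei, and DYNC2I2 in inhibitory nuclei, at 0.26 after thinning to 1500 UMIs; the cause was not tested. All 9 excitatory calls were kept under the alternatives for doublets, gene minimum, shared barcodes, clustering, class summary and median-of-ratios scaling, and 7 after thinning. With a fold threshold of 1, the genes past it numbered 0 upward and 1 downward in excitatory nuclei, 0 and 0 in inhibitory, 1 and 0 in astrocyte-like, 0 and 0 in oligodendrocyte-like nuclei, and 0 downward in precursor nuclei, a stricter rule by construction. Thinning gave 2 upward and 0 downward in inhibitory, 4 upward in astrocyte-like and 1 upward in oligodendrocyte-like nuclei, and 0 leading genes in astrocyte-like nuclei. A UMI minimum of 200 gave 1 downward in inhibitory, 1 upward and 0 downward in astrocyte-like and 1 upward in oligodendrocyte-like nuclei, and a minimum of 20 gave 1 upward in precursor nuclei. Clustering each library on its own gave 1 downward in inhibitory nuclei. Removing 2 times as many doublets gave 1 upward in oligodendrocyte-like and 1 downward in precursor nuclei and 0 leading in inhibitory nuclei; no doublet removal gave 1 downward in precursor nuclei and 0 leading in inhibitory nuclei. A minimum of 1000 genes gave 1 downward in precursor nuclei, and leaving out shared barcodes 1 downward in precursor nuclei and 0 leading in astrocyte-like nuclei. A lead of 0.5 gave 1 leading gene in excitatory, 3 in inhibitory, 3 in astrocyte-like and 5 in oligodendrocyte-like nuclei, and a lead of 2 gave 0 in inhibitory, astrocyte-like and oligodendrocyte-like and 1 in precursor nuclei. Relative to the ribosomal protein genes, a scale added after seeing the data like the shared barcodes, the subclass and cluster values and the set without cluster 13, the counts were 2 and 12 in excitatory, 0 and 11 in inhibitory, 1 and 8 in astrocyte-like, 0 and 9 in oligodendrocyte-like and 7 downward in precursor nuclei. No library could be left out, since a band would then be empty. No paired analysis was possible because a band holds a single library. The number of nuclei, 126 and 193, limits the precursor class, where 22 genes reached the UMI minimum.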
